A study of Mus musculus with 32 samples.

Results

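The 34 genes described here cover glucose uptake, the enzymes of glycolysis and their regulators, the handling of pyruvate and lactate, and genes of the response to low oxygen. They were chosen by name for these functions, with earlier results of these data known. They make up 34 of the 24302 genes listed, and 33 of them were among the 12332 genes tested. The remaining member, Eno1, had no more than 3 reads in any library. The names fit the genes' textbook roles in every case, although several belong to more than one group. Ero1l is named Ero1a in RefSeq.

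Poly(A) RNA was sequenced from CD4+ T cells, the helper T cell lineage, of C57BL/6J mice; the organs were the spleen and the inguinal and axillary nodes. The 32 libraries form 8 groups of 4. Cells labelled Nur77KO lack by design Nur77, the nuclear receptor that Nr4a1 encodes. These cells were stimulated for 12 h through CD3 and CD28 with XCT790 (Inhibitor 1, an inverse agonist of the nuclear receptor ERR-alpha) at 10 µg/ml, stimulated with Compound A (CompA, Inhibitor 2) at 10 µg/ml, stimulated without an inhibitor, or left unstimulated. WT cells formed the same 4 groups. Not given in the sources used here are the deleted stretch of Nr4a1, the age, sex and number of the mice, and any vehicle for cells without an inhibitor. The labels do not tie the 4 libraries of a group to separate animals, so p-values measure only how far these samples spread, and that spread may be technical.

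Glycolysis turns glucose into pyruvate in the cytosol, and proliferating cells send much of that pyruvate to lactate, which leaves the cell together with a proton. T cells take up this mode of metabolism when their antigen receptor and CD28 are engaged, partly through the transcription factors Myc and HIF-1. HIF-1 is a pair of proteins whose alpha subunit, encoded by Hif1a, is destroyed when oxygen lets prolyl hydroxylases such as Egln1 and Egln3 mark it. It binds a short core motif near genes of glycolysis and of the low-oxygen response.

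HIF-1 binding cores are written ACGTG or GCGTG. The stretches of promoter printed next belong to 5 members described in the comparisons that follow. These stretches were picked because they hold cores, and they show where those letters lie. They come from the RefSeq windows of GRCm38.p6, which hold 250 bases before and 50 after each annotated start, and each is given 5′ to 3′ in the direction of the gene. Capitals mark the cores on either strand, so that CACGT and CACGC are cores read from the opposite strand and a run such as CACGTG holds a core on both.
Slc16a3, chr11:120949034-120949063, plus strand: gcggtgACGTGcgcgggggACGTGccgcgc
Ak4, chr4:101419203-101419269, plus strand: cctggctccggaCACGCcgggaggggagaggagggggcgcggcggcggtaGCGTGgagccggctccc
Bnip3, chr7:138909525-138909635, minus strand: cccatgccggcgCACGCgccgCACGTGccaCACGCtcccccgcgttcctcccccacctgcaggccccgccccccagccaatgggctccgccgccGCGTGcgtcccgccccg
Ldha, chr7:46845647-46845786, plus strand: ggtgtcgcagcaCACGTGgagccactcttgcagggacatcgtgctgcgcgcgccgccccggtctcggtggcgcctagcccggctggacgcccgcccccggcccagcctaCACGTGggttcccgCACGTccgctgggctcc
Pgk1, chrX:106186938-106186985, plus strand: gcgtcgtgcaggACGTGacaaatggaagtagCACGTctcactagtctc

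The Slc16a3 stretch ends 4 bases before the annotated start and also lies within an exon of another transcript. Windows were given for 33 of the 34 members, and 30 of these 33 held at least 1 core in a window, against 46.7% of the 27025 genes with a window. No core was found for Gpi1, Tpi1 and Eno2, all of which were called higher with CompA in WT cells as deposited. Whether cores go with any response was not tested. The 33 members have 52 windows and the 27025 genes have 32851, and a gene with more windows has more chances to hold a core. The background is not limited to the genes tested. Member windows were also richer in G and C, with a median of 63.3% against 52.7% for all windows. The 2 shares are thus not alike, and no excess of cores can be read from them. The sequence CACGTG, which holds a core on both strands and is the E-box bound by Myc, was present in windows of 8 of the 33 members and in 7.15% of all 32851 windows. The site TNAAGGTCA, bound by ERR-alpha, was found only for Tpi1, and AAAGGTCA, bound by Nur77, only for Eno1 among the members; they were present in 1.28% and 1.51% of all windows. Both motifs were searched on both strands. For CACGTG and these sites, members were counted by gene over their 52 windows, but the background was counted by single window. These are unlike units, so no excess or lack can be read from them. These matches are letters in a window, and no binding was measured.

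Gene counts were 16.0 to 23.7 megacounts per library, with 13060 to 15148 genes detected. Nr4a1 transcript was not lower in the libraries labelled KO. It averaged 332 ± 128 CPM in KO-labelled and 166 ± 32.7 CPM in WT stimulated cells (SD, n = 4 each), a log2 difference of 1.00 with an adjusted p of 0.0015 by edgeR's quasi-likelihood test with Benjamini-Hochberg adjustment, the test behind all calls given here. CPM are counts per 1000000 gene counts, scaled by TMM factors. Since the part of the gene that was deleted is not given, the transcript level does not check the genotype labels, and the groups are called KO-labelled. Library numbers run from 1 to 16 in WT and from 25 to 40 in KO-labelled cells, so numbering and genotype cannot be told apart.

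A pair of features of the libraries bear on the members. The first concerns the 4 WT libraries stimulated without an inhibitor. In these, 112 genes that were nearly silent in every other stimulated group, none of them a member, stood at 0.204, 0.349, 0.287 and 0.195 of their level in the unstimulated library of the same run, a run being 4 consecutive title numbers with 1 library of each treatment. These genes were chosen for a mean of at least 10 CPM in WT unstimulated cells and at most 2% of it in each other stimulated group. The choice left WT stimulated cells out. Low values were thus fixed in advance in the other 20 stimulated libraries, where the share was 0.00175 to 0.0115. Myeloid and dendritic cell markers (23 of 24 listed) moved with it, summing to 806 to 1717 CPM in WT stimulated libraries, against 109 to 139 CPM in WT XCT790, 106 to 140 CPM in WT CompA and 135 to 223 CPM in KO-labelled stimulated libraries. Counts of called members in comparisons that use WT stimulated cells are therefore also given after the same-run unstimulated share was subtracted from their counts. Levels, ratios and genes outside the members are given as deposited. The second concerns replicate 2. In KO-labelled cells its B cell markers (15 genes) summed to 243 to 325 CPM in the stimulated libraries, with or without an inhibitor, against 31.1 to 79.1 CPM in the other replicates. In its unstimulated library they summed to 997 CPM, against 130 to 220 CPM. Its red cell, platelet and stromal markers (14 genes) summed to 248, 45.8 and 181 CPM with stimulation alone, XCT790 and CompA, where the other 3 replicates held 29.7 to 42.6, 26.5 to 34.5 and 32.6 to 52.2 CPM. Its myeloid and dendritic markers summed to 223, 236 and 240 CPM, against 135 to 141, 167 to 194 and 167 to 188 CPM. Its hypoxia genes, among other members, stood apart too in the stimulated libraries. In the unstimulated library it held the highest level of none of the hypoxia members. The part of these markers in that was not tested. In bulk RNA, fewer cells of a type and less RNA per cell cannot be told apart. CD4 T cell identity genes (11 of 14 listed) summed to 4854 to 7310 CPM in every library, and all 10 activation markers rose with stimulation in both genotypes.

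Stimulation raised most of the pathway, from the glucose transporter Slc2a1 through hexokinase 2 and the lower glycolytic enzymes to lactate dehydrogenase A and the lactate transporters. It raised 20 and lowered 7 of the 33 members in KO-labelled cells, and raised 19 and lowered 7 in WT cells. Over all genes tested, 39.3% were called higher and 42.4% lower in KO-labelled cells, and 34.5% and 38.8% in WT cells. The members' median log2 change was 0.70 in KO-labelled and 0.77 in WT cells, beside -0.07 and -0.11 over all genes. The genotypes shared 18 members called higher and all 7 called lower. Gpi1 and Pfkfb3 were called higher in KO-labelled cells alone and Gapdh in WT cells alone, and of these only Gpi1 passed the test of a difference between genotypes.

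Hk2 and Slc16a1 had among the largest changes. Hk2, the hexokinase that traps glucose as its phosphate in many proliferating cells (chromosome 6, 82725025 to 82774454, minus strand), stood at 62.3, 63.9, 106 and 97.0 CPM in KO-labelled stimulated libraries, against 3.40, 5.97, 5.41 and 8.11 CPM in KO-labelled unstimulated ones. In WT it stood at 79.4, 43.9, 65.7 and 92.4 CPM with stimulation, against 3.06, 7.11, 4.55 and 6.63 CPM without. Every stimulated library lay above every unstimulated one, and the log2 changes were 3.85 ± 0.29 in KO-labelled and 3.70 ± 0.29 in WT cells (SE), with adjusted p of 9.6e-13 and 5.9e-12. Hk1, the constitutive hexokinase, moved the other way, by -0.98 in KO-labelled and -0.49 in WT cells.

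Slc16a1, the monocarboxylate transporter MCT1 (chromosome 3, 104638664 to 104658462, plus strand), stood at 343, 300.2, 304 and 328 CPM in KO-labelled stimulated libraries, against 31.3, 37.8, 27.7 and 31.2 CPM in unstimulated ones. In WT the values were 314, 214, 257 and 280 CPM with stimulation, against 40.1, 25.8, 37.2 and 34.8 CPM without. The log2 changes were 3.31 ± 0.14 and 2.95 ± 0.14, with no overlap between groups and adjusted p of 3e-18 in KO-labelled and 6.5e-17 in WT cells. Slc16a3, the transporter MCT4 that favours export of lactate, rose much less, by 0.93 ± 0.35 in KO-labelled and 1.14 ± 0.37 in WT cells (adjusted p of 0.016 and 0.008).

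Slc2a1, the glucose transporter GLUT1, stood at 93.7, 124, 91.1 and 97.6 CPM in KO-labelled stimulated libraries, against 35.6, 40.5, 36.9 and 38.8 CPM in unstimulated ones. In WT the values were 99.3, 71.6, 97.0 and 88.7 CPM, against 42.5, 35.8, 45.9 and 41.0 CPM. Its log2 change was 1.42 ± 0.17 in KO-labelled and 1.11 ± 0.17 in WT cells, whereas Slc2a3, the high-affinity transporter GLUT3, fell by 0.85 and 0.58 on the log2 scale.

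**Figure D1:**
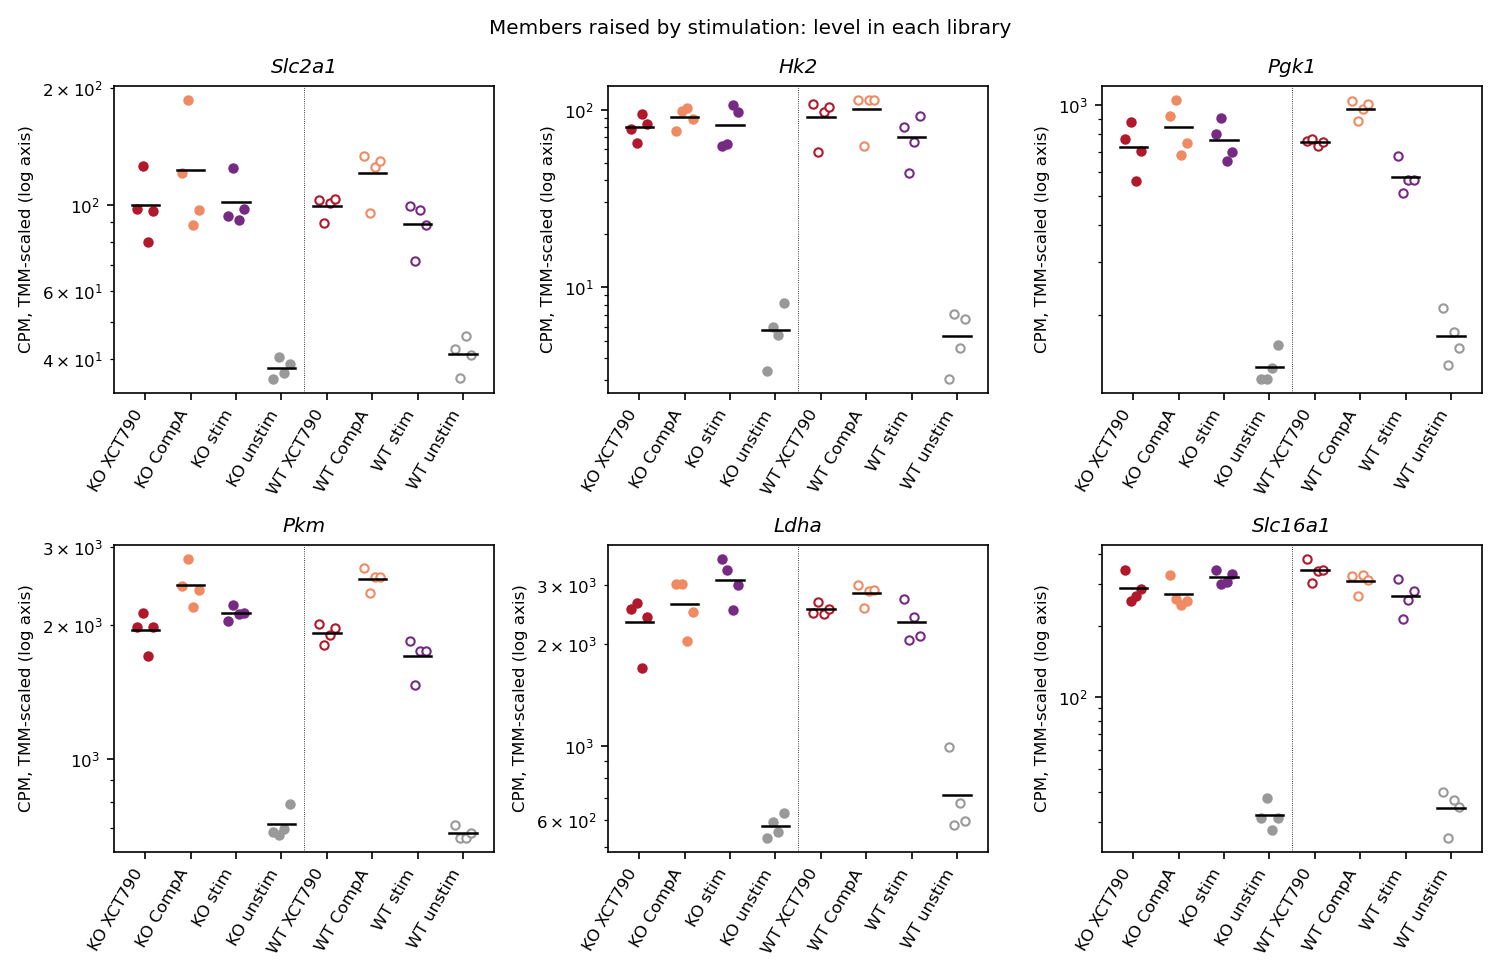
Level of 6 members in each library, as TMM-scaled CPM on a log axis, in the 4 KO-labelled groups (filled) and the 4 WT groups (open); points are libraries and bars are means of 4. All stimulated libraries lie above the unstimulated libraries of the same genotype, with Hk2 at 43.9 to 113 CPM in every stimulated library and at 3.06 to 8.11 CPM in unstimulated ones.

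The enzymes of the upper pathway divided by isozyme. Phosphofructokinase catalyses the committed step, and its subunit genes Pfkl and Pfkp rose by 1.13 and 0.92 in KO-labelled and by 1.12 and 1.06 in WT cells, while Pfkm, the muscle form, was not called and stayed at 8.89 to 15.1 CPM in all 32 libraries. Aldoa, which cleaves fructose bisphosphate, rose by 1.76 and 1.46, while the rarer Aldoc, at 2.93 to 5.33 CPM in unstimulated libraries, fell by 1.81 in KO-labelled and by 1.56 in WT cells. Of the Pfkfb enzymes, which make and remove the activator of phosphofructokinase, Pfkfb2 fell by 1.60 and 0.93 and Pfkfb4 by 1.22 and 0.86. Pfkfb3 rose by 0.21 in KO-labelled cells (adjusted p of 0.025), a call that turned to -0.12 when library totals replaced TMM factors and to -0.05 with upper-quartile factors.

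Most enzymes of the lower pathway rose. Pgam1, the mutase, stood at 133, 127, 115.5 and 132 CPM in KO-labelled stimulated libraries, against 16.8, 17.9, 17.2 and 20.4 CPM in unstimulated ones. Pgk1, the first ATP-yielding step, stood at 799, 905, 649.9 and 698 CPM, against 122, 122, 133 and 158 CPM. Their log2 changes were 2.81 ± 0.12 and 2.51 ± 0.15 in KO-labelled cells and 2.70 ± 0.12 and 1.77 ± 0.15 in WT cells, again without overlap.
Tpi1, which interconverts the triose phosphates, rose by 2.22 in KO-labelled and 1.81 in WT cells, and Pkm, pyruvate kinase, by 1.58 and 1.32. Eno3 rose by 0.42 and 0.61, and Eno2 was not called. Several of these genes have near-identical copies in the annotation. Of all 50-base windows in their transcripts, 53.9% of those of Pgk1, 36.2% of Pgam1 and 25.8% of Pkm also occur in another gene, so their counts depend on how such reads were assigned. Gapdh shared sequence with 213 pseudogenes and was counted at only 0.446 to 2.67 CPM, and Eno1 was at 0 in all 8 unstimulated libraries. The counts of Gapdh and Eno1 are therefore no measure of their expression.

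Lactate dehydrogenase shifted toward its A subunit. Ldha, which encodes the subunit favouring lactate formation, stood at 3581, 3328, 2529 and 2993 CPM in KO-labelled stimulated libraries, against 532, 591, 554 and 628 CPM in unstimulated ones. In WT it stood at 2717, 2064, 2410 and 2117 CPM, against 991, 580, 677 and 597 CPM. Stimulated libraries were above unstimulated ones throughout, with log2 changes of 2.43 ± 0.16 in KO-labelled and 1.71 ± 0.15 in WT cells (adjusted p of 3.9e-14 and 1e-10). Ldhb fell by 0.54 and 0.65. The log2 ratio of Ldha to Ldhb counts thereby reached 7.01 ± 0.06 in KO-labelled stimulated cells, against 4.04 ± 0.10 in unstimulated ones, and 6.38 ± 0.18 in WT stimulated cells, against 4.01 ± 0.17 (SD, n = 4 each). Per kilobase of exon, Ldha had the highest count among the members in stimulated cells, at 939 CPM per kilobase in KO-labelled and 703 in WT cells. Aldoa followed at 601 and 502 and Pkm at 426 and 341. This ranks counts only. Gapdh and Eno1 cannot be placed in it, since their counts do not measure their expression. The places of Pgk1, Pgam1 and Pkm depend on how reads of shared sequence were assigned. Pdk1, a kinase that switches off pyruvate dehydrogenase, fell by 1.09 in KO-labelled and by 0.99 in WT cells.

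The ratio of Hk2 to Hk1 moved in the same way, to -0.37 ± 0.29 in KO-labelled stimulated cells, against -5.26 ± 0.51 in unstimulated ones, and to -0.54 ± 0.61 in WT stimulated cells, against -4.77 ± 0.32. The ratio of Slc2a1 to Slc2a3 was 1.41 ± 0.07 against -0.86 ± 0.12 in KO-labelled cells and 0.87 ± 0.22 against -0.82 ± 0.07 in WT cells. The ratio of Slc16a3 to Slc16a1 went down instead, to -4.49 ± 0.64 against -2.04 ± 0.40 in KO-labelled cells and to -4.88 ± 0.16 against -3.08 ± 0.27 in WT cells. The 18 enzyme genes of the pathway together took 0.909 ± 0.046% of gene counts in KO-labelled stimulated cells, against 0.36 ± 0.024% in unstimulated ones. In WT cells they took 0.744 ± 0.057% with stimulation, against 0.323 ± 0.011% without. The 18 include Gapdh and Eno1, which were hardly counted, and genes with shared sequence such as Pgk1 and Pgam1. These shares are therefore no measure of how much of the cells' RNA the whole pathway takes.

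**Figure D2:**
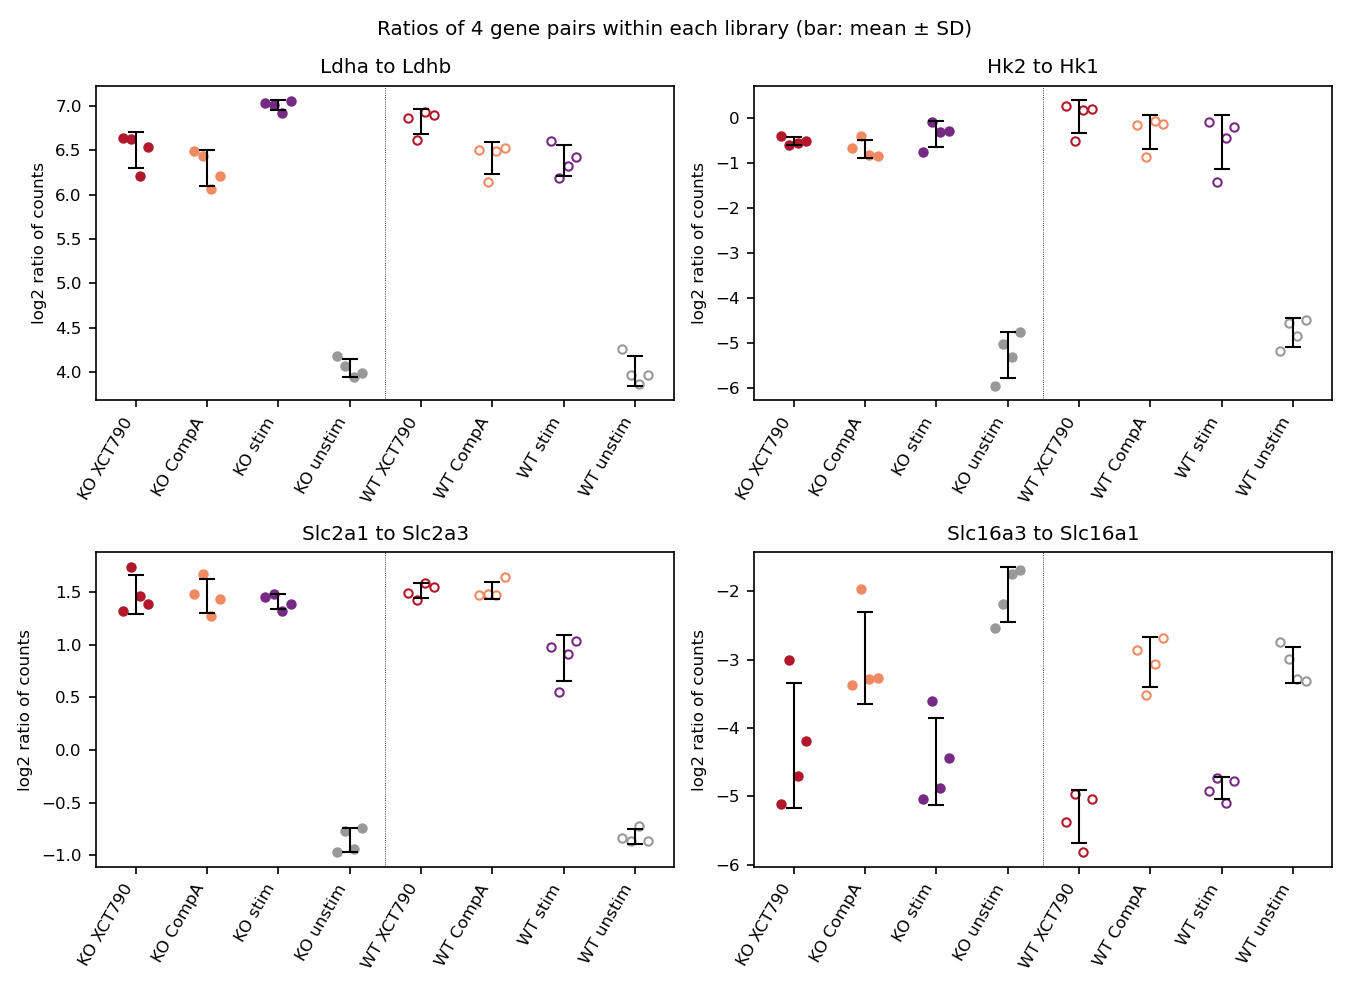
Log2 ratio of counts of 4 gene pairs within each library, KO-labelled groups filled and WT groups open, with mean ± SD of 4 libraries. Ldha to Ldhb, Hk2 to Hk1 and Slc2a1 to Slc2a3 are higher in every stimulated group than in unstimulated cells, whereas Slc16a3 to Slc16a1 is lower with stimulation and stands near -3 with CompA in both genotypes (-2.97 and -3.03).

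Among hypoxia genes, stimulation raised Ak4, Vegfa, Ero1l, Hif1a and Egln3 in both genotypes while neither Egln1, a prolyl hydroxylase, nor P4ha1 was called. Ak4, a mitochondrial adenylate kinase (chromosome 4, 101416478 to 101467771, plus strand), was nearly absent before stimulation, at 0.435 ± 0.13 CPM in KO-labelled and 0.122 ± 0.056 CPM in WT cells, the WT value resting on 9 reads in all. It stood at 12.1, 25.4, 11.7 and 15.6 CPM in KO-labelled stimulated and at 13.5, 8.08, 10.3 and 10.5 CPM in WT stimulated libraries. The log2 changes were 5.18 ± 0.40 and 6.42 ± 0.50. Ero1l, an oxidase of the endoplasmic reticulum, rose by 2.09 and 1.66, and Hif1a itself by 0.70 and 0.89. Bnip3, a mitophagy receptor, was not called in either genotype. In KO-labelled cells its log2 change was 0.97 with an adjusted p of 0.053, and 0.038 with the run as a block, but replicate 2 stood at 24.1 CPM and the others at 5.85 to 8.64 CPM, and without that run the change was 0.32 with an adjusted p of 0.21.

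With the unstimulated share subtracted from WT stimulated cells, stimulation raised 19 and lowered 8 members in WT cells, beside 37.3% and 43.3% of all genes. Taking part of the unstimulated profile out of stimulated counts widens such changes by construction, so these counts are no check of the calls. The counts also moved with the scaling. Library totals gave 15 higher and 9 lower members in KO-labelled cells, beside 30.8% and 51.4% of all genes and a median over all genes of -0.40. In WT cells they gave 18 and 8, beside 31.8% and 42.0% and a median of -0.19. Upper-quartile factors gave 15 and 9 in KO-labelled cells, beside 32.6% and 49.3%, and 17 and 10 in WT cells, beside 27.5% and 48.1%, with a median over all genes of -0.33 in both.

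The related lists moved as follows under stimulation. Over all genes tested, 39.3% rose and 42.4% fell in KO-labelled cells, and 34.5% and 38.8% in WT cells. Of 11 pentose phosphate genes, which branch from glycolysis to make NADPH and ribose, 7 rose and 2 fell in KO-labelled cells and 6 rose and 4 fell in WT cells. Tkt, transketolase, rose by 1.81 in KO-labelled and 1.40 in WT cells, and Prps1, which activates ribose for nucleotide synthesis, by 1.80 and 1.26. Of 19 other glucose enzymes and transporters tested, 11 rose and 5 fell in KO-labelled and 9 rose and 6 fell in WT cells, and Bsg, the chaperone that brings MCT1 and MCT4 to the membrane, rose by 1.81 and 1.2. Of 26 regulators, 13 rose and 9 fell in KO-labelled and 12 rose and 10 fell in WT cells, with Myc up by 2.89 and 2.55. Txnip, which restrains glucose uptake, fell by 3.44 in KO-labelled and by 1.64 in WT cells. Of 27 hypoxia response genes outside the members, 10 rose and 14 fell in KO-labelled cells and 7 rose and 11 fell in WT cells. Falls thus outnumbered rises in that list, as they did over all genes.

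CompA was set against stimulation alone. Slc16a3, Vegfa and Ak4 were called higher in both genotypes, and Hk2, Ldha and Slc16a1 in neither. CompA raised 6 and lowered 1 of the 33 members in KO-labelled cells, where 10.2% of all genes were called higher and 9.11% lower. In WT cells it raised 16 and lowered 4, beside 11.6% and 21.3% of all genes. The median log2 change was 0.19 in KO-labelled and 0.31 in WT cells, beside 0.03 and -0.04 over all genes. After subtraction of the unstimulated share, 12 were higher and 1 was lower in WT cells, beside 12.5% and 11.2% of all genes, with a median of 0.23. Of the 16 higher calls 10 were kept, namely Ak4, Bnip3, Eno2, P4ha1, Pfkp, Pgk1, Pkm, Slc16a3, Tpi1 and Vegfa, and the lower call kept was Eno3.

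Slc16a3 (chromosome 11, 120948484 to 120959000, plus strand) stood at 31.6, 66.4, 25.0 and 26.4 CPM in KO-labelled CompA libraries, against 10.5, 24.8, 10.3 and 15.0 CPM in KO-labelled stimulated ones. In WT it stood at 44.5, 23.2, 39.2 and 48.5 CPM with CompA, against 10.4, 8.08, 7.53 and 10.2 CPM without. No CompA library overlapped the stimulated libraries of its genotype, and within KO-labelled cells the highest value of each group was replicate 2. The log2 change was 1.30 ± 0.34 in KO-labelled cells (adjusted p of 0.0077) and 2.1 ± 0.35 in WT cells (adjusted p of 2.9e-05), or 1.80 with an adjusted p of 0.00046 after subtraction.

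Vegfa, the angiogenic growth factor (chromosome 17, 46016993 to 46032377, minus strand), stood at 8.38, 15.4, 9.02 and 10.0 CPM in KO-labelled CompA libraries, against 2.36, 6.54, 2.15 and 2.05 CPM in stimulated ones. In WT the values were 17.7, 7.87, 16.8 and 17.6 CPM with CompA, against 2.75, 1.65, 2.64 and 2.89 CPM without. The groups did not overlap, and the log2 changes were 1.72 ± 0.32 in KO-labelled and 2.59 ± 0.33 in WT cells (adjusted p of 0.0005 and 5.1e-07), or 2.19 in WT cells after subtraction.
Ak4 stood at 25.4, 47.2, 23.3 and 21.6 CPM in KO-labelled CompA libraries and at 34.9, 18.1, 33.1 and 37.0 CPM in WT CompA libraries, above the stimulated levels given earlier except that KO-labelled replicate 2 without inhibitor, at 25.4 CPM, lay within the CompA range. Its log2 changes were 0.86 ± 0.29 in KO-labelled and 1.54 ± 0.29 in WT cells (adjusted p of 0.034 and 0.00015), or 1.05 in WT cells after subtraction.

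Bnip3 (chromosome 7, 138890836 to 138909506, minus strand) depended on the runs in KO-labelled cells. It stood at 21.1, 51.9, 13.2 and 14.0 CPM in KO-labelled CompA libraries, against 8.64, 24.1, 5.85 and 7.15 CPM in stimulated ones, and was higher with CompA in 4 of 4 runs. Its log2 change in KO-labelled cells was 1.14 ± 0.45 with an adjusted p of 0.074. It was 1.12 with an adjusted p of 0.0064 when the run was fitted as a block, and 1.16 with an adjusted p of 0.0013 when the 4 KO-labelled libraries of run 2 were left out. In WT, Bnip3 stood at 31.3, 22.1, 26.7 and 26.0 CPM with CompA, against 8.60, 10.2, 7.98 and 6.35 CPM without, a log2 change of 1.68 ± 0.46 (adjusted p of 0.0052) that was 1.68 after subtraction. Of its 50-base windows 47.2% occur in other genes.

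With the run as a block, CompA raised 10 and lowered 3 members in KO-labelled cells, beside 15.5% and 16.3% of all genes. Besides Bnip3, the block called higher P4ha1, a collagen prolyl hydroxylase (0.34, adjusted p of 0.018), Pfkl (0.24, 0.043 as adjusted p) and Pfkp (0.22, 0.033 as adjusted p). Ldha at -0.26 and Slc16a1 at -0.26 were called lower, with adjusted p of 0.047 and 0.043. Tpi1 stood at 572, 367, 507 and 561 CPM in WT CompA libraries, against 268, 182, 208 and 226 CPM in WT stimulated ones. This is a log2 change of 1.18 ± 0.19 (adjusted p of 1.9e-05), and 0.81 after subtraction. In KO-labelled cells it stood at 469.6, 677, 389.6 and 396 CPM, against 406, 383, 319 and 317 CPM, a change of 0.44 with an adjusted p of 0.11 and overlapping groups.

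**Figure D3:**
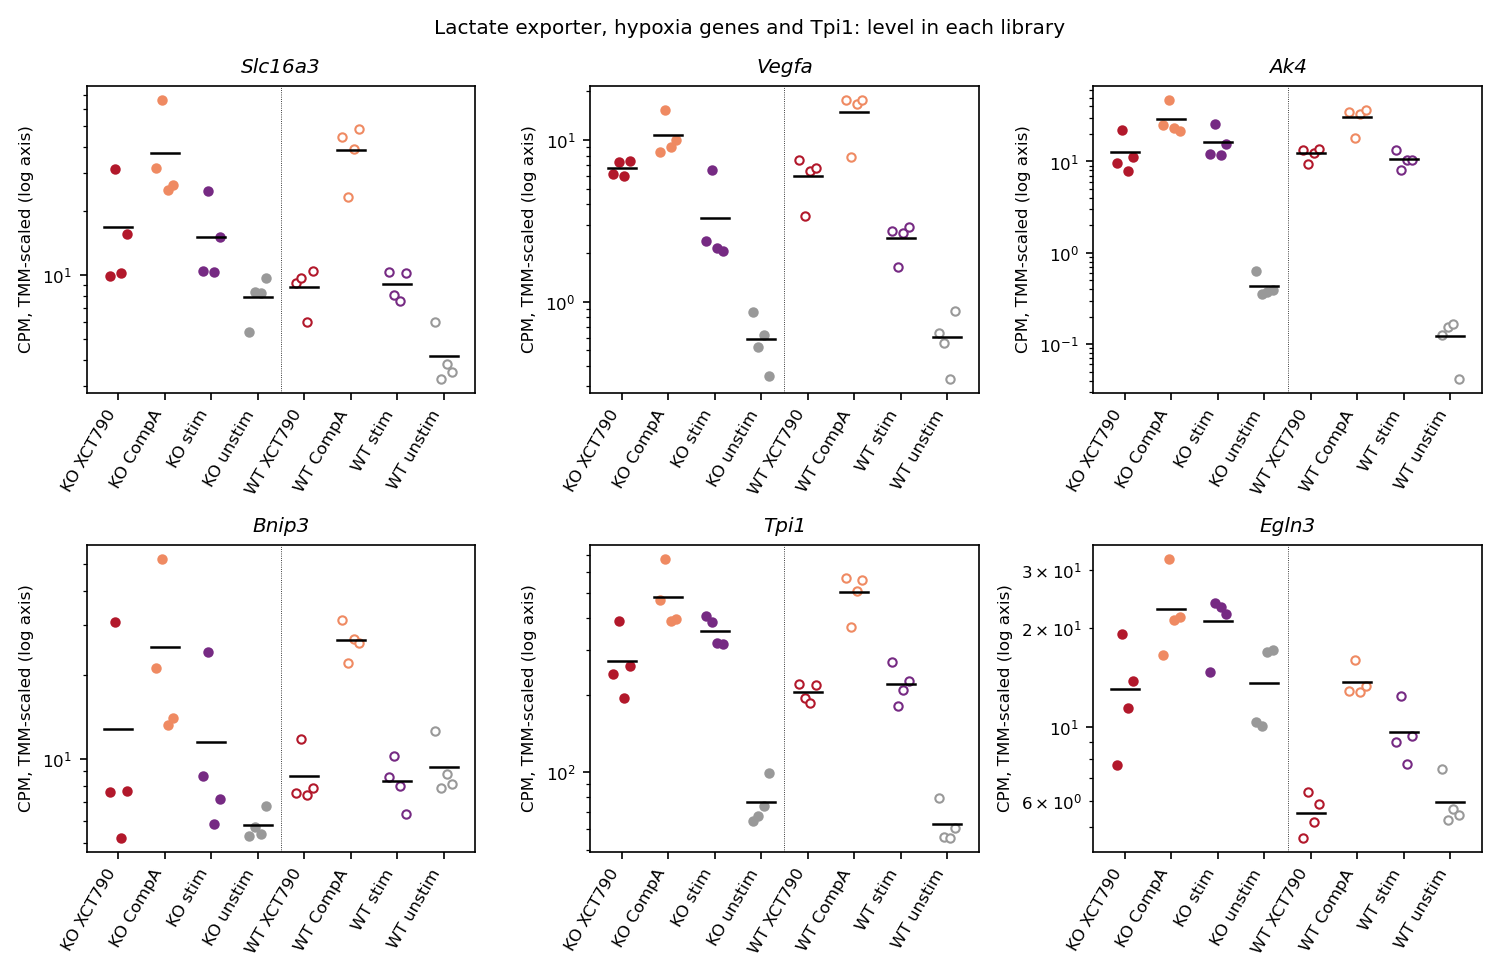
Level of 6 members in each library, as TMM-scaled CPM on a log axis, KO-labelled groups filled and WT groups open; points are libraries in replicate order and bars are means of 4. CompA libraries are above stimulated ones for Slc16a3, Vegfa and Bnip3 in WT cells, and within KO-labelled stimulated cells the second point stands apart for Bnip3 (24.1 CPM against 5.85 to 8.64 CPM).

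In KO-labelled cells CompA also raised Hk1 by 0.48, Ldhb by 0.46 and Pfkfb4 by 0.42 and lowered Eno3, the muscle enolase, by 0.68 on the log2 scale. In WT cells Ldhb and Hk1 were not called as deposited, at 0.25 and 0.28, but were called at 0.55 and 0.52 after subtraction. Eno3 fell by 0.44 in WT cells, or by 0.66 after subtraction. The log2 ratio of Slc16a3 to Slc16a1 was -2.97 ± 0.67 with CompA, against -4.49 ± 0.64 with stimulation alone in KO-labelled cells, and -3.03 ± 0.36 against -4.88 ± 0.16 in WT cells.

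Hypoxia response genes outside the members included others that CompA raised. Of 27 tested, 6 rose and 3 fell in KO-labelled cells and 5 rose and 3 fell in WT cells. Over all genes tested CompA raised 10.2% and lowered 9.11% in KO-labelled cells, and 11.6% and 21.3% in WT cells. The same shares apply to the other lists given next. Gys1, glycogen synthase, rose by 0.79 in KO-labelled cells (adjusted p of 8.4e-06) and by 1.26 in WT cells (adjusted p of 1.3e-10), and Bnip3l, a relative of Bnip3, by 0.67 and 0.42. Car12, a carbonic anhydrase that stimulation had raised by 4.00 and 3.89, fell by 1.27 in KO-labelled and by 0.82 in WT cells. Of 11 pentose phosphate genes 3 rose and 1 fell in KO-labelled cells and 5 rose and 1 fell in WT cells, with Taldo1, transaldolase, up by 0.47 and 0.54. Of the 19 other glucose genes, 1 rose and 2 fell in KO-labelled cells and 2 rose and 5 fell in WT cells. Of the 26 regulators, 2 rose and none fell in KO-labelled cells and 4 rose and 4 fell in WT cells.

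XCT790, which shares its stimulated controls with CompA, changed few members. It raised 3 and lowered 2 in KO-labelled cells, beside 6.20% and 5.07% of all genes, and raised 4 and lowered 5 in WT cells, beside 8.40% and 20.2%. Median log2 changes were -0.07 in KO-labelled and 0.01 in WT cells, against 0.02 and -0.01 over all genes. After subtraction, 0 members were higher by edgeR, with 2 at an unadjusted p under 0.05, and 2 were lower in WT cells, beside 5.01% and 3.15% of all genes. Of the 5 lower calls 1 was kept, Egln3. Esrra, which encodes ERR-alpha, fell by 0.61 in KO-labelled cells (adjusted p of 0.004) and by 0.53 in WT cells (adjusted p of 0.003).

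Egln3, a prolyl hydroxylase of HIF alpha subunits (chromosome 12, 54178981 to 54203874, minus strand), stood at 7.69, 19.2, 11.5 and 13.8 CPM in KO-labelled XCT790 libraries, against 14.8, 23.8, 23.1 and 22.0 CPM in stimulated ones. In WT it stood at 4.62, 6.37, 5.17 and 5.85 CPM with XCT790, against 9.01, 12.4, 7.73 and 9.40 CPM without. The WT groups did not overlap and the KO-labelled groups did, although each KO-labelled run was lower with XCT790. The log2 change was -0.81 ± 0.24 in WT cells (adjusted p of 0.012), or -1.06 with an adjusted p of 0.0095 after subtraction, and -0.68 ± 0.23 in KO-labelled cells, where the adjusted p was 0.05 after rounding and just under the threshold.

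Vegfa was higher with XCT790 in KO-labelled cells, at 6.19, 7.28, 5.98 and 7.36 CPM, by 1.05 ± 0.32 (adjusted p of 0.034), with stimulated replicate 2 at 6.54 CPM inside that range. In WT cells it stood at 7.49, 3.40, 6.42 and 6.70 CPM, higher by 1.27 ± 0.33 (adjusted p of 0.0041), or by 0.88 with an adjusted p of 0.1 after subtraction. Slc16a3 was not called, with log2 changes of 0.15 in KO-labelled and -0.03 in WT cells. Pfkfb4 and Pfkfb2 rose in KO-labelled cells by 0.75 and 0.50, and Eno3 fell by 0.46. In a fit of only the XCT790 and stimulated libraries of KO-labelled cells, edgeR called no member, while 7 had an unadjusted p under 0.05, and it called 1.27% of all genes higher and 0.904% lower. With the run as a block, XCT790 raised 3 and lowered 5 members in KO-labelled cells, beside 10.7% and 12.5% of all genes, and Ldha was then lower by 0.45 with an adjusted p of 0.0032.

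The 2 compounds were given at the same mass dose and for the same time, and this 1 pair was compared in each genotype with p adjusted over all genes. Every member called between them was lower with XCT790 than with CompA. In KO-labelled cells 7 were lower and 0 higher by edgeR, beside 1.27% and 1.97% of all genes. DESeq2 called 9 lower, beside 281 of all 12332 genes, and limma-voom 8, beside 160. Neither called a member higher, beside 334 genes by DESeq2 and 269 by limma-voom. In WT cells 14 were lower and 0 higher by edgeR, beside 5.08% and 4.33%. With the run as a block 18 were lower and 0 higher in WT cells, beside 7.78% and 6.56% of all genes, and 1 was higher at an unadjusted p under 0.05 by edgeR. The members' medians were -0.29 in KO-labelled and -0.36 in WT cells, with medians over all genes of -0.00 and -0.01. Of the members with a positive difference, 2 in KO-labelled and 0 in WT cells had an unadjusted p under 0.05 by edgeR. These comparisons use separate libraries in each genotype and none of the WT stimulated libraries. The 7 called in KO-labelled cells, Ak4, Egln3, Ldhb, Pfkfb3, Pfkp, Pkm and Tpi1, were 7 of 7 of the KO-labelled calls and 7 of 14 of the WT calls. Hypoxia response genes outside the members did not share this single direction. Of 27 tested, 0 were lower and 1 was higher with XCT790 than with CompA in KO-labelled cells, and 4 were lower and 3 higher in WT cells. Of the 19 other glucose genes, 2 were lower and 0 higher in KO-labelled cells, and 3 were lower and 1 higher in WT cells. The shares over all genes are those given above.

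Tpi1 stood at 242, 389, 194 and 259 CPM with XCT790 in KO-labelled cells and at 221, 194, 185 and 218 CPM in WT cells, below every CompA library of the same genotype, though KO-labelled replicate 2, at 389.4 CPM, was close to the lowest CompA value of 389.6 CPM. The log2 difference was -0.83 ± 0.19 in KO-labelled and -1.29 ± 0.19 in WT cells (adjusted p of 0.012 and 5.1e-05). Slc16a3 with XCT790 was at 9.88, 31.6, 10.2 and 15.6 CPM in KO-labelled and at 9.19, 9.65, 6.02 and 10.4 CPM in WT cells, differences from CompA of -1.15 ± 0.34 and -2.14 ± 0.36. The first had an adjusted p of 0.057, or 0.0026 with the run as a block, and the second 0.00019. Ak4 differed by -1.21 and -1.33 and Egln3 by -0.81 and -1.32, and both were called in both genotypes.

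The 7 called lower in WT cells alone were Slc16a3, Vegfa, Bnip3, Hk1, Pfkl, Aldoa and Gpi1, and whether these differences vary by genotype was not tested. Bnip3 differed by -1.62, Hk1 by -0.47, Pfkl by -0.46, Aldoa by -0.36 and Gpi1 by -0.24 in WT cells (adjusted p of 0.022, 0.049, 0.0071, 0.044 and 0.043). Vegfa differed by -0.67 in KO-labelled cells, with an interval from -1.28 to -0.07 and an adjusted p of 0.3, and by -1.32 in WT cells, with an interval from -1.93 to -0.71 and an adjusted p of 0.0064. Ldha, Slc16a1 and Hk2 were called in neither genotype. Approximate 95% intervals of the log2 difference ran from -0.48 to 0.11 for Ldha in KO-labelled cells and from -0.45 to 0.14 in WT cells. They ran from -0.16 to 0.34 and from -0.09 to 0.40 for Slc16a1, and from -0.68 to 0.31 and from -0.63 to 0.35 for Hk2. With the run as a block, 12 members were lower with XCT790 in KO-labelled cells, Bnip3 and Slc16a3 among them, and 0 were higher, with 2 at an unadjusted p under 0.05 by edgeR, beside 4.09% and 4.14% of all genes. The edgeR fit of only these KO-labelled groups called none, with 11 lower and 1 higher at an unadjusted p under 0.05, and called 0.244% of all genes lower and 0.416% higher. Without run 2 the count was 5 lower and 1 higher, beside 1.07% and 1.87%. In KO-labelled cells without run 2, Bnip3 differed by -1.24 (adjusted p of 0.0025).

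**Figure D4:**
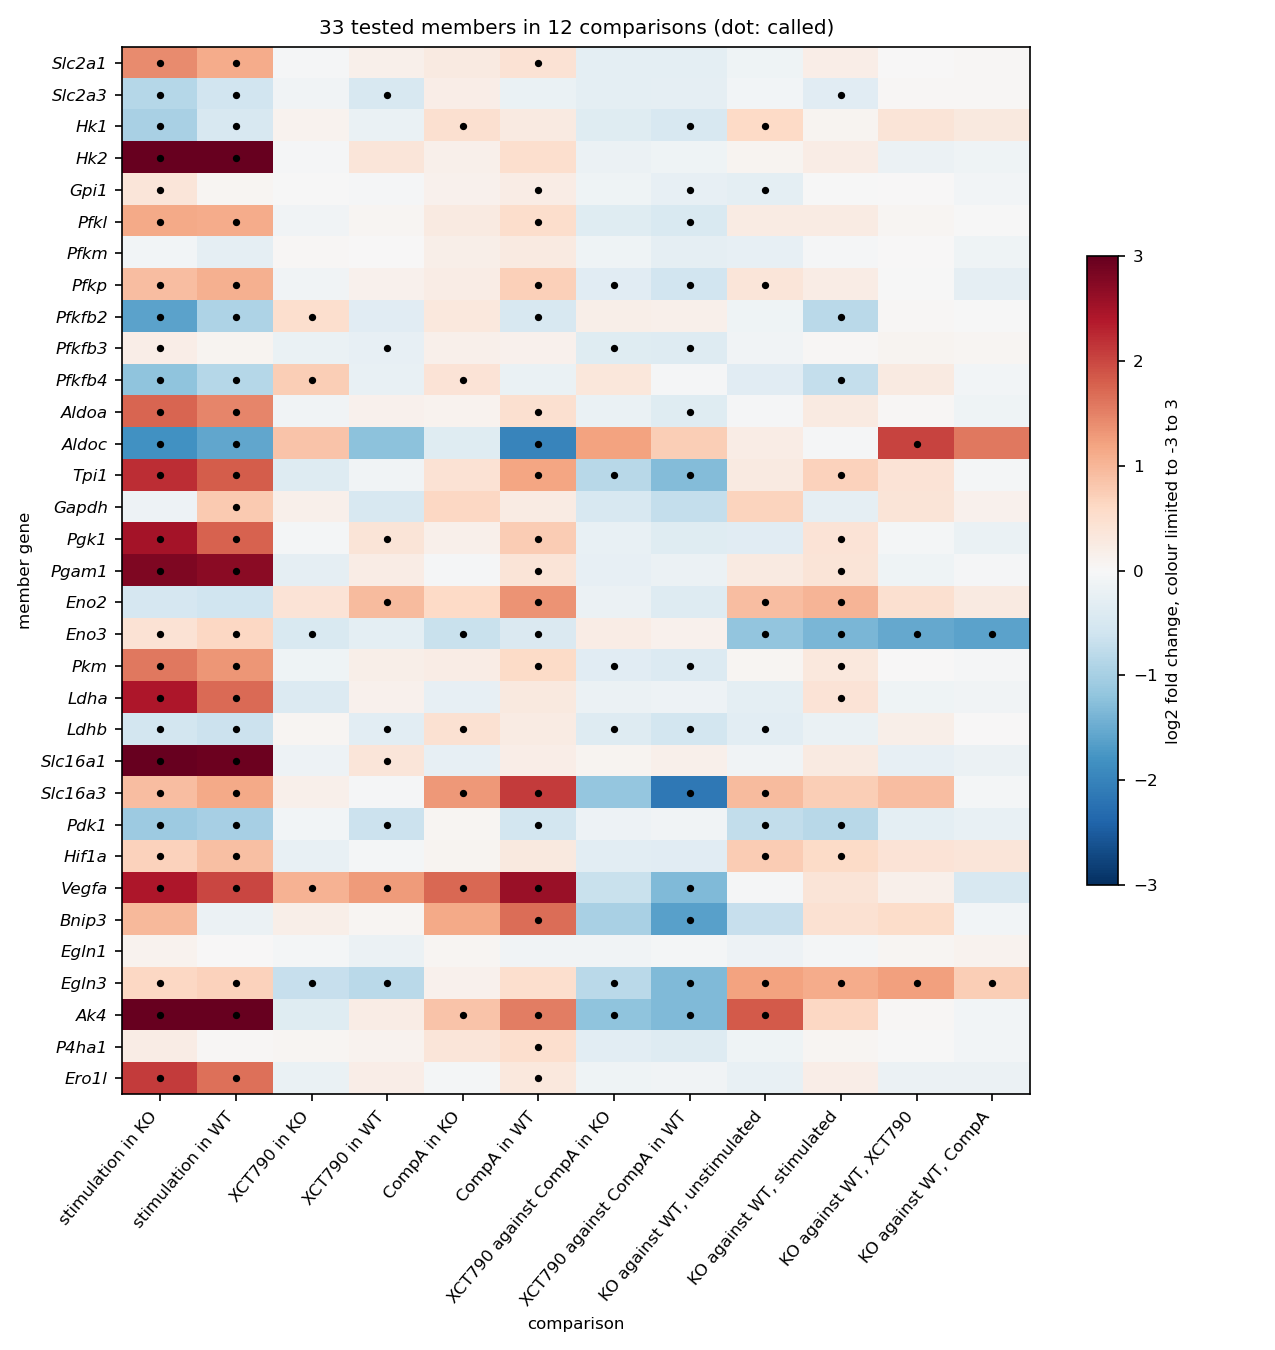
Log2 fold change of the 33 tested members in 12 comparisons, each named with the first group over the second and stimulation and inhibitors set against unstimulated and stimulated cells; colour is limited to -3 to 3 and dots mark calls at an adjusted p under 0.05. The XCT790 against CompA columns hold 7 and 14 dots, all on lower values, and Egln3 and Eno3 are dotted in all 4 columns of KO against WT.

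Between genotypes, a pair of members differed in all 4 conditions. Egln3 was higher in KO-labelled cells, by 1.2 ± 0.24 in unstimulated cells, 1.12 ± 0.23 with stimulation, 1.24 ± 0.24 with XCT790 and 0.73 ± 0.23 with CompA (adjusted p of 0.00054, 0.00051, 0.0011 and 0.045). In unstimulated cells it stood at 10.4, 10.1, 17.0 and 17.1 CPM in KO-labelled libraries, against 7.45, 5.23, 5.67 and 5.42 CPM in WT ones, without overlap. Without KO-labelled run 2 the CompA difference was 0.52 with an adjusted p of 0.12.
Eno3 (chromosome 11, 70653125 to 70662513, plus strand) was lower in KO-labelled cells by 1.18 to 1.61 on the log2 scale. It stood at 8.48, 6.11, 7.80 and 6.63 CPM in KO-labelled stimulated libraries, against 18.8, 19.5, 17.2 and 19.6 CPM in WT ones, and the genotypes did not overlap in any condition. Its change with subtraction was -1.59, and that of Egln3 was 0.86, both still called.

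In unstimulated cells 7 members were higher and 4 lower in KO-labelled cells, beside 12.5% and 23.6% of all genes, and the median of the members equalled that of all genes at -0.08. Hif1a was among them, at 289.8, 279, 343 and 426 CPM in KO-labelled libraries, against 182, 200, 195 and 211 CPM in WT ones, a log2 difference of 0.76 ± 0.14 (adjusted p of 0.00036). Pdk1 was at 246, 194, 235 and 185 CPM, against 369, 312, 419 and 344 CPM, lower by 0.75 on the log2 scale (adjusted p of 1.1e-05). Neither gene overlapped between genotypes there. With library totals the median of all genes moved to 0.13 and the counts became 11 higher and 2 lower, beside 24.3% and 9.59% of all genes, so the split rests on the scaling. Myeloid and dendritic markers summed to 1336 to 2788 CPM in KO-labelled and 3056 to 4288 CPM in WT unstimulated libraries, and their part in the member differences was not tested.

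In stimulated cells 8 members were higher and 5 lower in KO-labelled cells, beside 7.31% and 17.9% of all genes, with a median of 0.22 against 0.00. The higher ones included Tpi1, Ldha, Pgk1, Pgam1 and Pkm, and the lower ones Pfkfb2, Pfkfb4, Slc2a3 and Pdk1. After subtraction of the unstimulated share, 2 members were higher (Egln3 and Aldoc) and 1 lower (Eno3), beside 6.40% and 2.37% of all genes, and the members' median was -0.02. The Aldoc call arose with the subtraction, from -0.04 (adjusted p of 0.96) to 2.21 (adjusted p of 0.039). It rests on a subtracted WT mean of 0.268 CPM, with a lowest value of 0. Among KO-labelled stimulated libraries, replicate 2 stood at 2.96 CPM and the others at 0.600 to 0.966 CPM. Ldha, at 0.42 as deposited, was then 0.04, Pgk1 was 0.02 where it had been 0.40, and Pdk1 was -0.20 where it had been -0.84. The comparison with XCT790 uses none of the WT libraries stimulated without an inhibitor. With XCT790, 2 members were higher and 1 lower in KO-labelled cells, beside 7.40% and 2.11% of all genes, with a median of 0.04 against 0.03. The second higher member there was Aldoc, at 1.60 to 3.91 CPM in KO-labelled and 0.375 to 0.971 CPM in WT libraries. With CompA 1 was higher and 1 lower, beside 5.82% and 1.88%, with a median of -0.06 against 0.02. Members other than Egln3, Eno3 and Aldoc were not called between genotypes under either compound in this fit, and some alternatives called more.

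**Figure D5:**
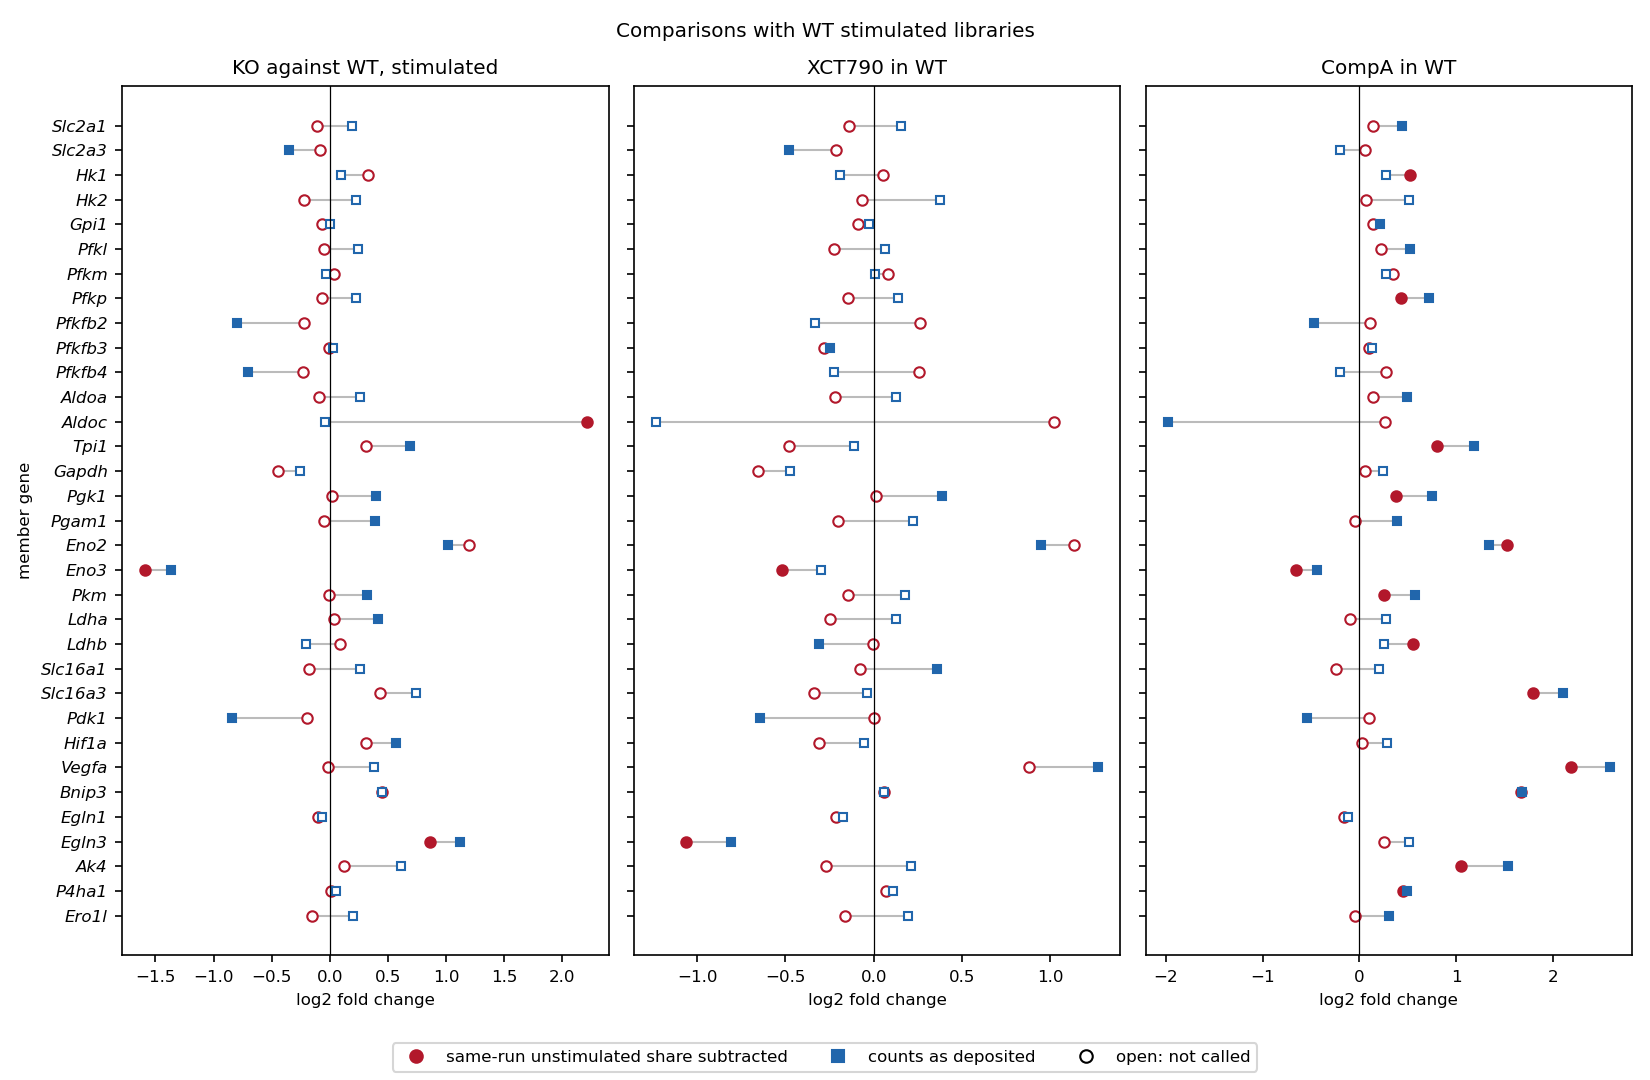
Log2 fold change of the 33 tested members in 3 comparisons that use WT stimulated libraries, after subtraction of the same-run unstimulated share (circles) and as deposited (squares), filled where called. Of the 13 genotype differences called as deposited, 2 stay called after subtraction, whereas the CompA changes of Vegfa, Slc16a3, Bnip3, Ak4 and Tpi1 stay called (2.19, 1.80, 1.68, 1.05 and 0.81).

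The interaction of stimulation with genotype was called for 5 members, 4 with a positive and 1 (Pfkfb2) with a negative difference of KO-labelled over WT change, beside 17.2% and 16.5% of all genes. Ldha and Pgk1 led, at 0.72 and 0.74. After subtraction they were 0.34 and 0.36 with adjusted p of 0.27 and 0.21, and none of the 5 calls was kept, while Pdk1 at 0.54 and Pfkp at -0.42 were called instead (adjusted p of 0.013 and 0.027). Over all genes 8.31% and 3.23% were then called, so calls fell across the whole table. The response to XCT790 differed by genotype for 4 members with a positive and 2 with a negative value, beside 17.5% and 7.23%, and that to CompA for 3 positive and 4 negative values, beside 15.6% and 5.99%. After subtraction no member was called in either interaction by edgeR, with 1 and 0 members at an unadjusted p under 0.05. Over all genes none was then called higher, and 0.00812% and 0.0162% were called lower, so the loss is not particular to the members. All of these interactions use the WT stimulated libraries.

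The runs divided the hypoxia genes within groups as well. In KO-labelled cells replicate 2 held the highest level of 7 of the 8 hypoxia members with stimulation, of 7 with CompA and of 6 with XCT790, but of none in unstimulated cells. Of all 33 tested members it held the highest level of 17, 21 and 17 in those groups and of 5 in unstimulated cells. In WT cells replicate 2 held the lowest level of 7 of the 8 with CompA, and of 24 of all 33 members. These shifts were thus not confined to the hypoxia genes, and the share over all genes is not given. Whether runs differ in animal, culture or day is not given in the sources used.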

How the data were processed

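Poly(A) RNA of 32 libraries of CD4+ T cells was sequenced with a directional kit, per the labels' protocols. The authors deposited raw read counts per gene for each library. Trimmomatic 0.36, HISAT2 2.1.0, SAMtools, HTSeq 0.9.1, R 3.4.4, DESeq2 1.18.1 and the genome build mm10 are named, with no order or role, per the submitters' processing notes. The sources used do not state the strand setting of the counting.

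The 5 summary lines of each file were kept out of library sizes. Reads in no feature were 3.03 to 7.94% and ambiguous reads 0.681 to 1.22% of listed reads, and non-unique alignments were 58.6 to 91.3 per 100 gene counts. From the counts, 12332 of 24302 genes passed filterByExpr, and 15 comparisons were tested with edgeR 4.0.16 (TMM factors, glmQLFit and glmQLFTest, 1 fit of all 8 groups, Benjamini-Hochberg adjustment over all tested genes, threshold 0.05) in R 4.3.3. Standard errors were taken from the fold change and its F value, and intervals from those errors. The fits were tested on simulated data. limma 3.58.1 and DESeq2 1.42.0 served for alternatives. No replicate pair agreed within sampling noise, the chi-square per degree of freedom being 3.01 to 125.5.

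Runs of 4 consecutive title numbers give the replicate numbers. Deviations from group means of libraries of 1 run correlated at 0.19 to 0.69 in every pair of KO-labelled groups, so these runs were taken as pairs in the blocked fits. The main fit held no run term, so its calls leave this pairing out. In WT this held for unstimulated and stimulated cells (0.37 to 0.56) and for XCT790 and CompA (0.17 to 0.49), and other pairs went down to -0.22. Blocked fits within 1 genotype used edgeR with a run term, and all other blocked fits used limma's duplicateCorrelation.

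Members and lists were chosen with earlier results of these data known. All 34 members are accounted for by role, with values per library for called members, largest change first; other lists give their counts and up to 4 called genes with small adjusted p, and Nr4a1 and Esrra serve as checks. Genome positions and promoter windows come from RefSeq, GRCm38.p6, which gave windows for 33 members. The subtraction of a same-run unstimulated share was chosen after seeing the data.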

Additional observations from a re-analysis of the deposited data

Results flagged for a closer look

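Single libraries that stood apart from the other 3 of their group were found in 24 of 264 gene and group combinations. For independent, normally spread values chance gives about 1 in 20. These combinations share the same 32 libraries and are not independent, so no excess can be read from that rate. Replicate 2 held 18 of the 24, and 10 of those were KO-labelled. In KO-labelled stimulated cells replicate 2 was high for Bnip3 (24.1 CPM, others 5.85 to 8.64), Vegfa (6.54, others 2.05 to 2.36), P4ha1 (105, others 70.5 to 76.0) and Aldoc (2.96, others 0.600 to 0.966). With XCT790 it was high for Bnip3 (30.8, others 5.20 to 7.67) and Aldoc (3.91, others 1.60 to 1.84). With CompA it was high for Slc16a3 (66.4, others 25.0 to 31.6), Ak4 (47.2, others 21.6 to 25.4), Egln1 (173, others 107 to 118) and Aldoc (2.63, others 0.281 to 0.667). In WT cells replicate 2 was low with CompA for Hk2 (62.5, others at 113), Vegfa (7.87, others 16.8 to 17.7), P4ha1 (87.2, others 116 to 119) and Pgam1 (107, others 132 to 137). It was low for Slc2a3 in unstimulated cells (65.2, others 74.4 to 75.8) and high with XCT790 for Bnip3 (11.8, others 7.38 to 7.83), Ldhb (27.1, others 20.2 to 21.3) and Aldoc (0.971, others 0.375 to 0.468).

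The other 6 were Pfkfb3 in WT XCT790 replicate 3 (53.8 CPM, others 49.3 to 50.1), Pgam1 in KO-labelled XCT790 replicate 3 (86.3, others 109 to 113), Aldoa and Pkm in KO-labelled unstimulated replicate 4 (577 and 794, others 497 to 499.9 and 677 to 696), Pdk1 in KO-labelled stimulated replicate 1 (116, others 94.7 to 97.8) and Ak4 in KO-labelled unstimulated replicate 1 (0.625, others 0.351 to 0.392).

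A response that differed between KO-labelled and WT cells by the test of the interaction was found 18 times, each given as the log2 change in KO-labelled minus that in WT cells. For stimulation these were Pgk1 (0.74), Ldha (0.72), Ero1l (0.43), Gpi1 (0.29) and Pfkfb2 (-0.67). For XCT790 they were Aldoc (2.08), Pfkfb4 (0.97), Pfkfb2 (0.83), Pdk1 (0.56), Pgam1 (-0.50) and Slc16a1 (-0.51). For CompA they were Pfkfb2 (0.80), Pfkfb4 (0.61), Pdk1 (0.61), Tpi1 (-0.74), Pgk1 (-0.60), Pfkp (-0.49) and Pkm (-0.37). All use the WT stimulated libraries, and none of the 18 was called after the same-run unstimulated share was subtracted, when 8.31% of all genes were still called higher and 3.23% lower for stimulation, 0 and 0.00812% for XCT790 and 0 and 0.0162% for CompA.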

How the results depend on the processing

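Of 162 member calls, 80 held under every alternative, 82 were lost in at least 1 and 14 turned in at least 1. Counts of members called under stimulation, of members lower with XCT790 than with CompA in WT cells, and of members raised by CompA in WT cells stayed within 1.5 times under every alternative run. Where others moved, the cause was not tested, except that fewer samples enter some fits. Depth limits Ak4, Vegfa, Eno2 and Gapdh, which had 1 to 39 reads in unstimulated libraries, and sequence shared with other genes limits Pgk1, Bnip3 and Pgam1.

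With DESeq2, members lower with XCT790 in KO-labelled cells were 5, lower in KO-labelled than WT cells 2 with XCT790 and 2 with CompA, and negative interactions 6 for XCT790 and 9 for CompA. Over all 12332 genes DESeq2 called 1106, 623, 454, 1765 and 1602 in these, against 625, 260, 232, 891 and 739 in the main fit. The calls thus rose across the whole table. With limma-voom, 1 was lower with XCT790 in KO-labelled cells and 0 were higher in KO-labelled than WT cells with CompA, where 2 had an unadjusted p under 0.05. Over all genes limma-voom called 642 and 536 in these, against 625 and 718 in the main fit. With library totals, 1 was higher with XCT790 in WT cells, 10 higher with CompA in KO-labelled cells, 11 higher and 2 lower in KO-labelled than WT unstimulated cells, and interactions were 2 positive and 5 negative for stimulation and 1 negative for CompA. Over all 12332 genes library totals gave 577, 1608, 2992 and 1183, 882 and 3124, and 471. Pfkfb3 under stimulation in KO-labelled cells was -0.12, and -0.050 with upper-quartile factors. Without a filter on low counts, 3 were lower with XCT790 in WT cells, and negative interactions were 0 for stimulation (1 at an unadjusted p under 0.05 by edgeR) and 5 for XCT790. Of all 17750 genes in that fit, 2344, 1648 and 1160 were called in these. With only the groups compared, XCT790 in KO-labelled cells gave 0 higher and 0 lower (3 and 4 at an unadjusted p under 0.05 by edgeR), CompA 2 higher, and XCT790 against CompA 0 lower (11 unadjusted). Over all genes these fits called 140 and 100, 408, and 27. KO-labelled against WT gave 2 higher when stimulated and 4 higher and 2 lower with XCT790, and interactions were 2 positive for stimulation and 2 negative for CompA. Over all genes these were 257, 909 and 424, 794, and 526.

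With the replicate block, 9 members were lower with XCT790 in WT cells and 5 in KO-labelled cells, 10 were higher and 3 lower with CompA in KO-labelled cells, 12 were lower with XCT790 than with CompA in KO-labelled cells, and negative interactions were 2 for stimulation, 6 for XCT790 and 9 for CompA. No other member count moved by over 1.5 times. Over all genes the block called 3056 and 1504, 1863 and 1958, and 493, with 2907, 1761 and 1683 negative interactions. Without the 4 KO-labelled libraries of run 2, 1 was higher with XCT790 than with CompA in KO-labelled cells, 4 higher with XCT790 and 3 lower with CompA in KO-labelled than WT cells, and 2 interactions with stimulation were positive. Of all 12394 genes in that fit, 232, 935, 194 and 1616 were called in these.

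With the unstimulated share subtracted, by the mean profile or the same run, XCT790 in WT cells gave 0 higher and 2 lower, CompA 1 lower, KO-labelled against WT stimulated cells 2 higher and 1 lower, positive interactions with stimulation 0 or 1, and interactions with XCT790 and CompA 0 in either direction. Over all genes the mean profile gave 468 and 368, 1316, 501 and 238, and 599, with 0 interactions for either compound. The same run gave 617 and 388, 1384, 788 and 292, and 1023, with at most 2. At an unadjusted p under 0.05 by edgeR, those 0 counts were 3 or 2 higher with XCT790 in WT cells, 3 positive interactions with stimulation by the mean profile, and at most 1 interaction in each direction with each compound. Signs turned, by mean profile and same run, for Slc16a1 (-0.080 and -0.077) and Pdk1 (0.12 and 0.0037) with XCT790 in WT cells, where Ldhb was 0.072 by mean profile. With CompA in WT cells they turned for Pfkfb2 (0.14 and 0.11), Pgam1 (-0.042 and -0.040), Pdk1 (0.21 and 0.10) and Ero1l (-0.048 and -0.048), and for Aldoc by same run (0.27). Between stimulated genotypes they turned for Pgam1 (-0.050 and -0.048) and Pkm (-0.0031 and -0.0061), and in interactions for Pdk1 with XCT790 (-0.20 and -0.084) and CompA (-0.14 and -0.028) and Aldoc with XCT790 by same run (-0.18).

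Leaving out 1 library at a time, or run 2, gave these ranges, for which shares over all genes are not given. XCT790 raised 1 to 3 and lowered 1 to 3 members in KO-labelled cells and raised 1 to 3 and lowered 3 to 6 in WT cells, and CompA raised 3 to 7 in KO-labelled cells. XCT790 against CompA in KO-labelled cells gave 0 to 1 higher and 1 to 8 lower. KO-labelled against WT gave 4 to 7 higher and 2 to 6 lower unstimulated, 4 to 9 higher stimulated, 1 to 4 higher with XCT790, and 0 to 1 higher and 1 to 3 lower with CompA. Interactions were 2 to 7 positive and 0 to 2 negative for stimulation, 0 to 6 negative for XCT790, and 2 to 5 positive and 1 to 9 negative for CompA.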

Other observations

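G6pdx, which encodes the entry enzyme of the pentose phosphate pathway, was higher with both compounds in both genotypes. Its log2 change with XCT790 was 0.37 in KO-labelled cells and 0.52 in WT cells (adjusted p of 0.0012 and 1.2e-06 by edgeR), and with CompA 0.27 and 0.42 (adjusted p of 0.0076 and 2.7e-05). Both compounds were set against the same stimulated libraries, and WT values are as deposited.

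Gys1, glycogen synthase, fell with stimulation by 0.56 in KO-labelled and by 0.37 in WT cells on the log2 scale. It was higher with XCT790 by 0.58 in KO-labelled and 0.28 in WT cells. Between the compounds Gys1 was lower with XCT790 than with CompA in WT cells, by 0.98 on the log2 scale (adjusted p of 2.7e-07 by edgeR), and was not called in KO-labelled cells, where the difference was -0.21 with an adjusted p of 0.32.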
